A study of Danio rerio with 24 samples.

Results

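The expression of 10 genes of the major histocompatibility complex (MHC) and of antigen processing was followed in whole zebrafish larvae that express an activated Fyn kinase in neurons. The genes were *b2m*, *mhc1uba*, *mhc1zba*, *mhc1zca*, *mhc1zea*, *tap1*, *tap2a*, *mhc2dab*, *cd74a* and *cd74b*, and a gene was taken where its symbol in the deposited count tables was identical to one of these names. This matched 9 of the 10 names among 26878 genes in all, and *mhc1uba* is not analysed here. All 9 are protein-coding in the tables' annotation.

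MHC class I molecules show peptides from inside the cell to cytotoxic T cells. Each is a heavy chain held by β2-microglobulin, the light chain encoded by *b2m*. The peptides are cut by the proteasome and pumped into the endoplasmic reticulum by the TAP transporter, whose subunits are encoded by *tap1* and *tap2* genes, and there tapasin and calreticulin help to load them. MHC class II molecules show peptides from engulfed material and are made mostly by macrophages, microglia, dendritic cells and B cells. The invariant chain, encoded by *cd74* genes, fills the class II groove until cathepsins trim it away. Teleost class I heavy chains fall into U, Z and L lineages, and the copies that a zebrafish carries can differ between haplotypes, so a gene of this family may be present in one line of fish and missing from another. Interferons raise the class I pathway in mammals through IRF1 and the transactivator NLRC5, and CIITA does the same for class II.

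The data were RNA-seq counts from 24 libraries in 6 groups of 4, each library made from poly(A) RNA of pooled whole larvae. The wild-type (WT) groups carried no transgene and came from the WIK strain. The *elavl3:Gal4* groups (huC:gal4:gcry:RFP in the labels) carried the Gal4-VP16 driver, which acts in all neurons. The fynY531F groups carried the same driver and a UAS:fynY531F:gcry:GFP transgene, a cDNA of zebrafish *fyna* mutated to keep the kinase active. Each line was sampled at 3 and 5 days post fertilization (dpf). The UAS line descends from a single adult outcrossed to WIK. Whether the pools of a group came from separate clutches is not given, so p-values here measure only the spread between these pools. Because whole larvae were used, fewer cells of a type and less RNA per cell cannot be told apart in any result.

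Levels are given in CPM, which are counts per 1000000 of a library's total after the total was scaled by the trimmed mean of M values (TMM). Library totals ran from 11386498 to 30549128 counts, and 3 counts corresponded to between 0.0969 and 0.359 CPM. The *fyna* level, to which the endogenous gene and the transgene both add, was 69.1 to 92.6 CPM in all WT and *elavl3:Gal4* libraries. In fynY531F larvae it was 823 to 972 CPM at 3 dpf and 141 to 270 CPM at 5 dpf. The fynY531F labels thus held, but *fyna* cannot tell WT from *elavl3:Gal4* or the ages within those lines. Genes that mark neurons, muscle, liver, blood, skin, lens and pancreas were counted in every group, as whole larvae should give. The third *elavl3:Gal4* library at 5 dpf stood apart, with a median correlation of 0.872 to its group against at least 0.983 for every other library, and results that rest on it are given with and without it. Summed over 7 markers of macrophages and microglia, the level was 840 to 1072 CPM in WT, 1206 to 1465 CPM in *elavl3:Gal4* and 1525 to 2113 CPM in fynY531F larvae at 3 dpf, and 741 to 865, 822 to 1984 and 1416 to 1792 CPM at 5 dpf. None of the 7 was at 0 in any group, and *mpeg1.1*, which is specific to macrophages, averaged 1.24 ± 0.231 CPM in WT and 2.14 ± 0.480 CPM in fynY531F larvae at 3 dpf (SD, n = 4). *mpeg1.1* was thus a small part of these sums, and the sums need not follow the number of these cells. The part of these cells in the results that follow was not tested.

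The 9 genes lie on 7 chromosomes of the GRCz11 build. The Z-lineage genes lie close together on the reverse strand of chromosome 1. They are *mhc1zea* (ENSDARG00000001470) at 47116121 to 47122141, *mhc1zca* (ENSDARG00000069471) at 47140788 to 47151790 and *mhc1zba* (ENSDARG00000036588) at 47155424 to 47161996. Another gene, *BX005416.1*, starts between *mhc1zea* and *mhc1zca*. *b2m* (ENSDARG00000053136) lies on the reverse strand of chromosome 4 at 12785964 to 12795489 and overlaps *irak3* on the same strand, so reads in the overlap could belong to either gene. *irak3* itself averaged between 0.308 and 0.819 CPM per group. *tap1* (ENSDARG00000079766) lies on the forward strand of chromosome 16 at 48678655 to 48708045. *tap2a* (ENSDARG00000036787) lies on the forward strand of chromosome 19 at 7124337 to 7132315 and overlaps the immunoproteasome genes *psmb8a* and *psmb13a* on the opposite strand. *mhc2dab* (ENSDARG00000079105) lies on the reverse strand of chromosome 8 at 36466771 to 36469117. *cd74a* (ENSDARG00000009087) lies on the forward strand of chromosome 14 at 3038473 to 3052361, and *cd74b* (ENSDARG00000036628) on the forward strand of chromosome 21 at 33459524 to 33463894. Reads that fit several class I copies may have been split or left out when they were counted, and the sources used here do not give the setting.

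*mhc1zba* stood far above the other 8 genes. Per kilobase of transcript and averaged over the 24 libraries, it reached 18.2 CPM per kb. It was followed by *cd74b* at 3.76, *mhc1zea* at 2.98, *b2m* at 1.96, *cd74a* at 1.83, *mhc1zca* at 1.56 and *tap1* at 0.879 CPM per kb. *mhc2dab* at 0.187 and *tap2a* at 0.0481 CPM per kb came last, with 89 and 56 counts in all 24 libraries together. *b2m* was thus counted at a lower level per kilobase than the most abundant heavy chain. This does not hold for the light chain as a whole. A second β2-microglobulin gene, *b2ml*, was added after its values were seen. It had group means between 81.8 and 84.1 CPM at 3 dpf and between 202 and 227 CPM at 5 dpf. Those of *mhc1zba* were lower, between 25.6 and 29.6 CPM at 3 dpf and between 49.1 and 71.2 CPM at 5 dpf.

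**Figure D1:**
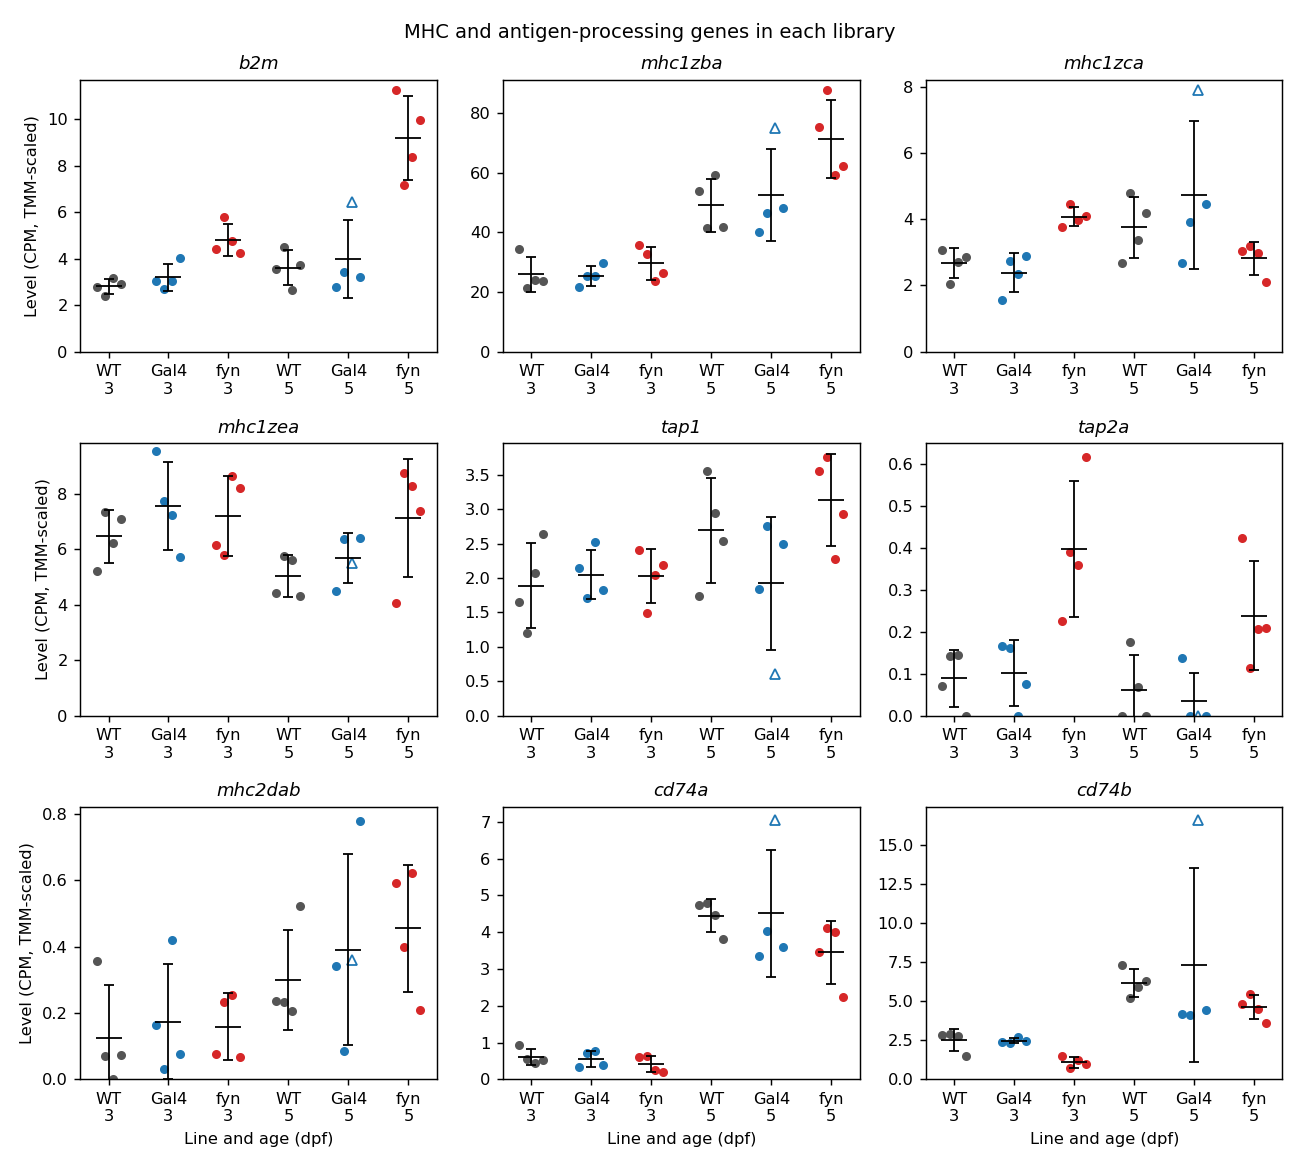
Levels of the 9 genes in CPM (vertical axes, each panel on its own scale from 0) in the 6 groups of 4 libraries. Points are libraries, black dashes and bars are mean ± SD, and the open triangle is the *elavl3:Gal4* library at 5 dpf that stands apart. *b2m* in fynY531F larvae at 5 dpf lies above all other libraries, and *cd74a* and *cd74b* are higher at 5 than at 3 dpf in every line.

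None of the 9 genes met the rule used here for a gene present in one line and missing from another. A line was called off for a gene when all 4 of its libraries at an age were under 0.5 CPM and on when all 4 were at 1 CPM or more, and a gene was all-or-none when at least one line was off and at least one on. By this rule 0 of the 9 were all-or-none at 3 dpf, where 0.0893% of all 26878 genes were, and 0 of the 9 at 5 dpf, where 0.223% were. The count stayed at 0 under each of the 3 other definitions tried. With so few genes all-or-none in all, 0 of 9 does not set the members apart. *tap2a* and *mhc2dab* reached at most 0.616 and 0.780 CPM in any library. The rule could thus not call them on in any line, and it leaves their presence or absence undecided. At 3 dpf *b2m*, *mhc1zba*, *mhc1zca*, *mhc1zea* and *tap1* were on in all 3 lines, and at 5 dpf *b2m*, the 3 Z-lineage genes, *cd74a* and *cd74b* were. Line differences of these genes at these ages are graded ones among lines that were all on. The other genes were low, or mixed within a group, and are classed as neither. *tap2a* was off in WT and *elavl3:Gal4* and mixed in fynY531F larvae at 3 dpf and off in all 3 lines at 5 dpf. *tap1* was mixed at 5 dpf only because the third *elavl3:Gal4* library had 0.598 CPM, and *cd74b* at 3 dpf because 2 fynY531F libraries, at 0.703 and 0.958 CPM, were under 1 CPM. Of the 78 other genes within 200 kb of the 9, none was all-or-none by the rule.

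The first question was which of these genes differ when the activated kinase is added to the driver line. At 3 dpf fynY531F larvae had more *b2m* and *mhc1zca* and less *cd74b* than the driver line, which makes 3 of 6 tested genes, while 18.6% of all tested genes were called, 8.88% as higher and 9.73% as lower. A gene is called where the quasi-likelihood test of edgeR, with p-values adjusted over all genes tested, falls under 0.05. The median log2 difference was 0.14 over the 6 genes and 0.0022 over all genes. At 5 dpf none of 7 tested genes was called by edgeR, against 4.6% of all genes, 1 had an unadjusted p under 0.05 and DESeq2 called 1, *b2m*. Without the third *elavl3:Gal4* library 2 of 7 were called, both higher, against 22.7% of all genes, 11.7% as higher. Compared with WT, 2 of 6 were higher and 1 lower at 3 dpf against 27.5% of all genes, 12.7% as higher and 14.8% as lower. At 5 dpf 2 of 7 were higher and none lower against 28.8% of all genes, 14.5% as higher. In 1 fit over all 6 groups no member was called against *elavl3:Gal4* at 3 dpf, with edgeR adjusted p of 0.137 for *b2m*, 0.0946 for *mhc1zca* and 0.101 for *cd74b*. Against WT the calls of *mhc1zca* and *cd74b* at 3 dpf (edgeR adjusted p of 0.175 and 0.0676) and of *mhc1zba* at 5 dpf (edgeR adjusted p of 0.0548) were lost in it. The comparisons with *elavl3:Gal4* and with WT share the fynY531F libraries.

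No difference between the driver line alone and WT was called at these genes. With edgeR none of 6 tested genes was called at 3 dpf, where 4.79% of all genes were, and none of 7 at 5 dpf, where 0.0508% were. No gene of the 9 had an unadjusted p under 0.05 at either age, and DESeq2 called none. In simulated counts 51% of genes changed by 1.5 log2 were recovered for this comparison at 5 dpf. The lack of calls there thus cannot show that the lines are alike. The log2 differences ran from -0.16 for *mhc1zca* to 0.20 for *mhc1zea* at 3 dpf and from -0.45 for *tap1* to 0.30 for *mhc1zca* at 5 dpf. Without the third *elavl3:Gal4* library edgeR still called none at 5 dpf, against 1.95% of all genes. The log2 differences then ran from -0.55 for *cd74b* to 0.19 for *mhc1zea*, with *tap1* at -0.20 and *mhc1zca* at -0.044. For *cd74b* the remaining *elavl3:Gal4* libraries, at 4.09 to 4.45 CPM, lay below every WT library, at 5.19 to 7.34 CPM.

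**Figure D2:**
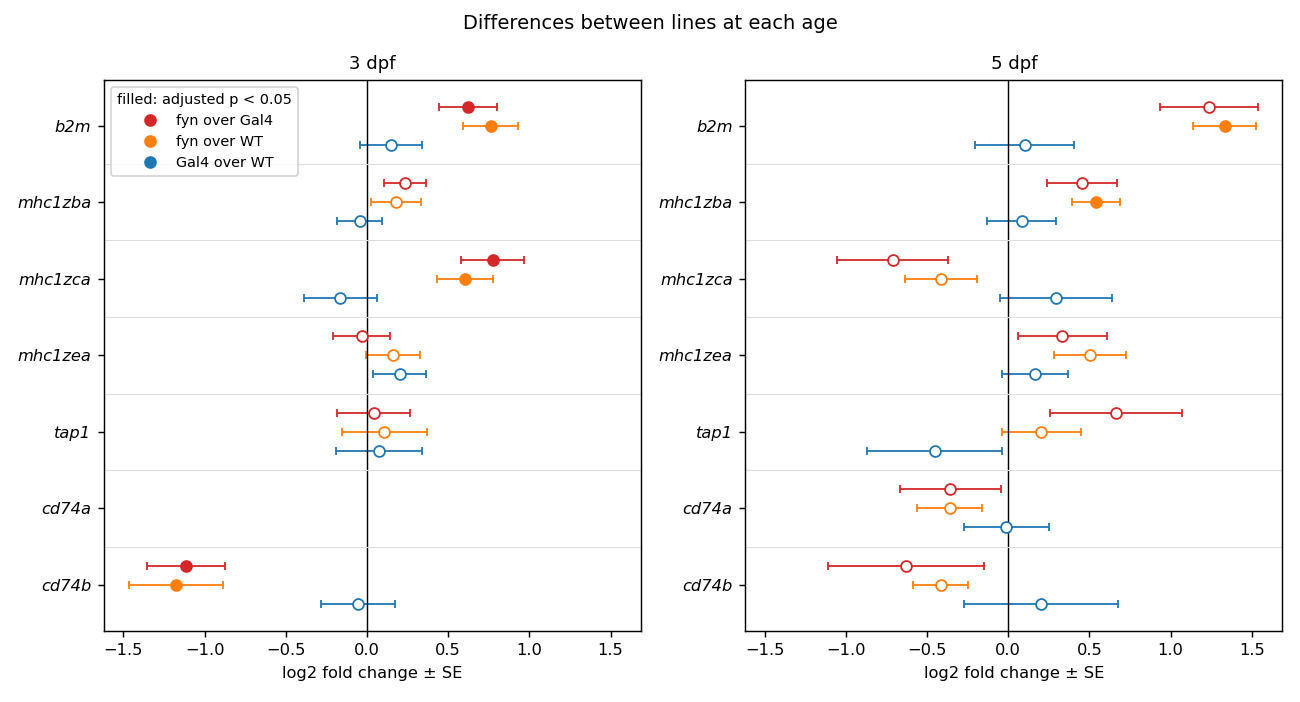
Log2 fold changes between lines (horizontal axis) for 7 genes, at 3 and 5 dpf, with bars of 1 standard error. Filled points passed an adjusted p of 0.05 in edgeR, and *cd74a* was not tested at 3 dpf. *b2m* lies to the right of 0 in every comparison with fynY531F, *mhc1zca* changes side between the ages, and no point for *elavl3:Gal4* against WT is filled.

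*b2m*, the less abundant of 2 class I light chain genes, had the largest log2 difference from WT of the tested members, at 5 dpf. It was higher in fynY531F larvae at both ages. At 3 dpf it stood at 2.79, 2.40, 3.15 and 2.93 CPM in WT, 3.05, 2.71, 3.03 and 4.04 CPM in *elavl3:Gal4* and 4.44, 5.78, 4.76 and 4.24 CPM in fynY531F larvae. Every fynY531F library lay above every library of the other lines. At 5 dpf the values were 3.55, 4.49, 2.67 and 3.73 CPM in WT, 2.80, 3.44, 6.46 and 3.20 CPM in *elavl3:Gal4* and 11.3, 7.18, 8.36 and 9.97 CPM in fynY531F larvae. Again the fynY531F libraries lay above all others, and the *elavl3:Gal4* library nearest to them was the third. The log2 difference from WT was 0.76 ± 0.17 (SE) at 3 dpf with an edgeR adjusted p of 0.00524 and 1.33 ± 0.19 at 5 dpf with an edgeR adjusted p of 0.000693. From *elavl3:Gal4* it was 0.62 ± 0.18 at 3 dpf with an edgeR adjusted p of 0.0305. This call was lost when *elavl3:Gal4* replicate 1, 2 or 3 or fynY531F replicate 2 or 3 was left out, with log2 differences of 0.53 to 0.63 and edgeR adjusted p of 0.059 to 0.102. At 5 dpf the difference from *elavl3:Gal4* was 1.24 ± 0.30 with an edgeR adjusted p of 0.0541. It was 1.53 ± 0.19 with an edgeR adjusted p of 0.000707 without the third *elavl3:Gal4* library. The more abundant *b2ml* overlapped between the lines at both ages. At 3 dpf it had 78.2 to 92.8 CPM in WT, 77.5 to 83.8 CPM in *elavl3:Gal4* and 76.9 to 92.8 CPM in fynY531F larvae. At 5 dpf the ranges were 205 to 221, 184 to 216 and 203 to 256 CPM. The rise of *b2m* is thus one of a minor light chain gene.

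*mhc1zba*, the most abundant Z-lineage heavy chain, was higher in fynY531F than in WT larvae at 5 dpf. Its WT libraries had 53.9, 41.5, 59.1 and 41.8 CPM, the *elavl3:Gal4* libraries 40.3, 46.5, 75.1 and 48.1 CPM and the fynY531F libraries 75.5, 87.8, 59.2 and 62.3 CPM. All fynY531F libraries lay above all WT libraries, the lowest by a small margin, and they overlapped with *elavl3:Gal4* only through the third library of that group. The log2 difference from WT was 0.54 ± 0.15 with an edgeR adjusted p of 0.0205. Without WT replicate 2 or 4 it was 0.46 and 0.47 with edgeR adjusted p of 0.0587 and 0.0638. From *elavl3:Gal4* it was 0.45 ± 0.21 with an edgeR adjusted p of 0.286, and 0.66 ± 0.14 with an edgeR adjusted p of 0.00913 without the third library. At 3 dpf the lines overlapped, with 34.4, 21.4, 24.1 and 23.8 CPM in WT, 21.7, 25.3, 25.5 and 29.8 CPM in *elavl3:Gal4* and 35.7, 32.7, 23.6 and 26.6 CPM in fynY531F larvae. The log2 differences of the last from the other lines were 0.18 and 0.23 and were not called.

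*mhc1zca*, its neighbor on chromosome 1, was higher in fynY531F larvae at 3 dpf, while at 5 dpf no difference between lines was called. At 3 dpf it stood at 3.07, 2.05, 2.72 and 2.86 CPM in WT, 1.56, 2.74, 2.36 and 2.90 CPM in *elavl3:Gal4* and 3.76, 4.45, 3.99 and 4.11 CPM in fynY531F larvae. Every fynY531F library was above every other library of that age. At 5 dpf it stood at 2.68, 4.78, 3.36 and 4.18 CPM in WT, 2.66, 3.91, 7.89 and 4.45 CPM in *elavl3:Gal4* and 3.05, 3.19, 2.97 and 2.09 CPM in fynY531F larvae, and the lines overlapped. The log2 difference at 3 dpf was 0.77 ± 0.20 from *elavl3:Gal4* with an edgeR adjusted p of 0.0162 and 0.60 ± 0.17 from WT with an edgeR adjusted p of 0.0213. Without the second WT library the latter was 0.49 with an edgeR adjusted p of 0.0627. At 5 dpf it was -0.71 ± 0.34 from *elavl3:Gal4* and -0.41 ± 0.22 from WT, with edgeR adjusted p of 0.293 and 0.185. Without the third *elavl3:Gal4* library the first was -0.38 ± 0.24 with an edgeR adjusted p of 0.282. The test of the difference between the ages is given with the age comparisons.

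*mhc1zea*, the third Z-lineage gene, showed no called difference between lines. Its group means ran from 5.04 ± 0.768 CPM in WT at 5 dpf to 7.56 ± 1.58 CPM in *elavl3:Gal4* at 3 dpf (SD, n = 4). In fynY531F larvae at 5 dpf the libraries had 4.06, 8.77, 8.29 and 7.39 CPM, with the first well under the others, against 4.42, 5.78, 5.62 and 4.33 CPM in WT. The log2 difference of 0.51 ± 0.22 had an edgeR adjusted p of 0.112, and without that first library it was 0.69 with an edgeR adjusted p of 0.00745. The 3 Z-lineage genes thus gave a call against WT each in different settings. These were *mhc1zca* at 3 dpf, *mhc1zba* at 5 dpf and *mhc1zea* only with a library left out.

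*tap1*, the TAP subunit, did not differ between lines in a called way. At 3 dpf its group means were 1.89 ± 0.614 CPM in WT, 2.05 ± 0.363 CPM in *elavl3:Gal4* and 2.03 ± 0.394 CPM in fynY531F larvae (SD, n = 4). At 5 dpf they were 2.70 ± 0.765, 1.92 ± 0.963 and 3.13 ± 0.668 CPM. The widest log2 difference was 0.66 ± 0.41 between fynY531F and *elavl3:Gal4* larvae at 5 dpf, where the third *elavl3:Gal4* library had 0.598 CPM against 1.84 to 2.75 CPM in the other 3, and its edgeR adjusted p was 0.41. Without that library it was 0.40 ± 0.24 with an edgeR adjusted p of 0.272.

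*tap2a*, a gene for the partner subunit, was near the limit of detection and failed the filter on low counts in every comparison. The WT libraries had 1, 2, 2 and 0 counts at 3 dpf, the *elavl3:Gal4* libraries 2, 5, 0 and 1 and the fynY531F libraries 3, 5, 7 and 9. At 5 dpf the counts were 0, 3, 1 and 0, then 2, 0, 0 and 0, and then 5, 2, 3 and 3. Pooled over 4 libraries, fynY531F larvae at 3 dpf had 0.398 CPM with a 95% exact Poisson interval of 0.255 to 0.593, against 0.0897 (0.0291 to 0.209) in WT and 0.117 (0.0507 to 0.231) in *elavl3:Gal4*. These intervals cover counting error only. At 5 dpf the fynY531F pool had 0.223 CPM (0.119 to 0.382), the WT pool 0.0692 (0.0189 to 0.177) and the *elavl3:Gal4* pool 0.0339 (0.0041 to 0.122). Counts that come from overlapping genes on the other strand cannot be told apart from its own if strand was not used in counting, and *psmb8a* summed to 2, 5 and 7 counts in WT, *elavl3:Gal4* and fynY531F larvae at 3 dpf and to 7, 3 and 34 at 5 dpf. With no filter on low counts edgeR gave *tap2a* a log2 difference of 2.05 between fynY531F and WT larvae at 3 dpf with an adjusted p of 0.0448, and 1.77 from *elavl3:Gal4* with an adjusted p of 0.079. The low counts are those of *tap2a* and not of every *tap2* gene. *tap2t*, a further one, was added after its values were seen. With single libraries left out, its log2 change with age ran from 0.89 to 1.03 in WT and from 0.95 to 1.15 in fynY531F larvae.

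*mhc2dab*, a class II beta chain, was also too low to test. Its counts per library were 0 to 5 at 3 dpf in every line. At 5 dpf they were 3, 4, 3 and 7 in WT, 5, 2, 3 and 10 in *elavl3:Gal4* and 7, 7, 9 and 3 in fynY531F larvae. The pooled levels in WT, *elavl3:Gal4* and fynY531F larvae were 0.126, 0.132 and 0.166 CPM at 3 dpf and 0.294, 0.339 and 0.447 CPM at 5 dpf, with exact Poisson intervals that overlap between the lines at each age. A difference between lines was not detectable at this depth.

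The invariant chain gene *cd74b* was lower in fynY531F larvae at 3 dpf. It had 2.86, 2.89, 2.79 and 1.46 CPM in WT, 2.39, 2.33, 2.69 and 2.44 CPM in *elavl3:Gal4* and 1.51, 0.703, 1.23 and 0.958 CPM in fynY531F larvae. The fynY531F libraries were below every *elavl3:Gal4* library and below all WT libraries but the fourth. The log2 difference was -1.11 ± 0.24 from *elavl3:Gal4* with an edgeR adjusted p of 0.00679 and -1.18 ± 0.29 from WT with an edgeR adjusted p of 0.00967. Both calls remained with each single library left out. *cd74a* was at 0.205 to 0.93 CPM at this age, the lines overlapped, and it was not tested between them. Of the 7 markers of macrophages and microglia, 2 were called as higher than in *elavl3:Gal4* at this age, *lgals3bpb* by 0.52 and *apoeb* by 0.48 log2, and none as lower. Of those not called, *mfap4* differed by 0.58 (edgeR adjusted p of 0.123), *mpeg1.1* by 0.24, *marco* by 0.017 and *spi1b* by -0.076. The median log2 difference over the 7 markers was 0.24. Their part in the *cd74b* difference was not tested.

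At 5 dpf neither invariant chain gene was called between lines. *cd74b* stood at 7.34, 5.19, 5.90 and 6.27 CPM in WT, 4.17, 4.09, 16.6 and 4.45 CPM in *elavl3:Gal4* and 4.82, 5.47, 4.49 and 3.63 CPM in fynY531F larvae. The third *elavl3:Gal4* library lay far above all others. With it the log2 difference of fynY531F from *elavl3:Gal4* larvae was -0.63 ± 0.48, and without it the value was 0.13, so the sign rests on that library. From WT it was -0.42 ± 0.17 with an edgeR adjusted p of 0.0892. *cd74a* had 4.73, 4.78, 4.46 and 3.81 CPM in WT, 3.35, 4.04, 7.05 and 3.59 CPM in *elavl3:Gal4* and 3.47, 4.10, 4.01 and 2.23 CPM in fynY531F larvae, and the lines overlapped.

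The second question was how the genes change with age within each line. Between 3 and 5 dpf 3 of 7 tested genes rose in WT, where 58% of all genes were called, 29.3% as higher. In *elavl3:Gal4* larvae 3 of 7 rose with and without the third library, where 25.7% of all genes were called with it, 15.4% as higher, and 59% without it, 29.6% as higher. In fynY531F larvae 5 of 7 rose and 1 fell, where 52.3% of all genes were called, 27% as higher and 25.3% as lower. *mhc1zba*, *cd74a* and *cd74b* were the genes that rose in all 3 lines. The median log2 difference over the 7 genes was 0.52 in WT, 0.96 in *elavl3:Gal4* and 0.93 in fynY531F larvae, against -0.0033, 0.016 and 0.0027 over all genes.

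*cd74a* had the steepest rise with age, of 2.85 ± 0.24 log2 in WT, 2.98 ± 0.37 in *elavl3:Gal4* and 3.07 ± 0.36 in fynY531F larvae, with edgeR adjusted p of 4.16e-07, 0.000794 and 5.93e-05. In each line every library at 5 dpf lay above every library at 3 dpf. *cd74b* rose by 1.29 ± 0.21 in WT with an edgeR adjusted p of 0.000135 and by 2.05 ± 0.24 in fynY531F larvae with an edgeR adjusted p of 6.38e-05. In *elavl3:Gal4* larvae it rose by 1.55 ± 0.49 with an edgeR adjusted p of 0.0482, and by 0.80 with an edgeR adjusted p of 0.0021 without the third 5 dpf library. That call was lost without any single *elavl3:Gal4* library at 3 dpf or without replicate 4 at 5 dpf, with edgeR adjusted p of 0.0524 to 0.121, and with DESeq2 size factors it had an edgeR adjusted p of 0.0516. Over the same days the 4 matched of 6 listed markers of T cells and thymus summed to 2.27 to 4.66 CPM at 3 dpf and to 12.4 to 26.0 CPM at 5 dpf over all lines, with *cd8a* at 0 in every 3 dpf group and in WT at 5 dpf, and their part in these rises was not tested. The macrophage and microglia sum had a lower median at 5 than at 3 dpf in each line, at 776 against 994 CPM in WT, 931 against 1222 CPM in *elavl3:Gal4* and 1524 against 1651 CPM in fynY531F larvae. Its members did not move alike, with 2 of 7 called as higher and 4 as lower with age in WT, 1 and 0 in *elavl3:Gal4* and 2 and 2 in fynY531F larvae, and *lgals3bpb* rose in all 3 lines, by 0.67, 0.60 and 0.86 log2.

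Among the class I genes *mhc1zba* rose by 0.92 ± 0.15 log2 in WT, 1.04 ± 0.20 in *elavl3:Gal4* and 1.27 ± 0.16 in fynY531F larvae, with edgeR adjusted p of 0.000125, 0.00665 and 8.1e-05. *b2m* rose in fynY531F larvae by 0.93 ± 0.17 with an edgeR adjusted p of 0.00103. In WT its difference was 0.36 with an edgeR adjusted p of 0.127, which became 0.48 with an edgeR adjusted p of 0.044 without the third 5 dpf library. In *elavl3:Gal4* larvae the *b2m* difference was 0.30 with an edgeR adjusted p of 0.517, and 0.0033 without the third 5 dpf library. *mhc1zea* was the class I gene with negative values in all 3 lines, at -0.36, -0.40 and -0.0090. None of these was called, and in WT it was called as lower without the first 3 dpf library (-0.45, edgeR adjusted p of 0.0282) or the second 5 dpf library (-0.44, edgeR adjusted p of 0.0475).

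*mhc1zca* fell with age in fynY531F larvae by 0.52 on the log2 scale with an edgeR adjusted p of 0.028, while its differences were 0.49 in WT and 0.96 in *elavl3:Gal4* larvae, with edgeR adjusted p of 0.0609 and 0.0832. The fall was no longer called without replicate 2, 3 or 4 at 3 dpf or replicate 4 at 5 dpf of fynY531F larvae, with edgeR adjusted p of 0.0524 to 0.0716, nor in the fit over all 6 groups, with 0.119. The WT rise was called without its first 5 dpf library (0.61, edgeR adjusted p of 0.0237) and the *elavl3:Gal4* rise without its first 5 dpf library (1.16, edgeR adjusted p of 0.047). Without the third 5 dpf library the latter was 0.61 with an edgeR adjusted p of 0.0538. *tap1* rose in fynY531F larvae by 0.62 ± 0.23 with an edgeR adjusted p of 0.0387, although the ages overlap at 1.48 to 2.41 and 2.28 to 3.76 CPM. That call was lost without replicate 2, 3 or 4 at 3 dpf or replicate 1, 2 or 4 at 5 dpf, with edgeR adjusted p of 0.0544 to 0.104. It was also lost with library totals alone (edgeR adjusted p of 0.0745), in the fit over all 6 groups (edgeR adjusted p of 0.122) and with DESeq2 (adjusted p of 0.0524). The WT difference of 0.53 in *tap1* had an edgeR adjusted p of 0.118, and it was called without the fourth 3 dpf library (0.72, edgeR adjusted p of 0.0494) or the first 5 dpf library (0.67, edgeR adjusted p of 0.0481).

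**Figure D3:**
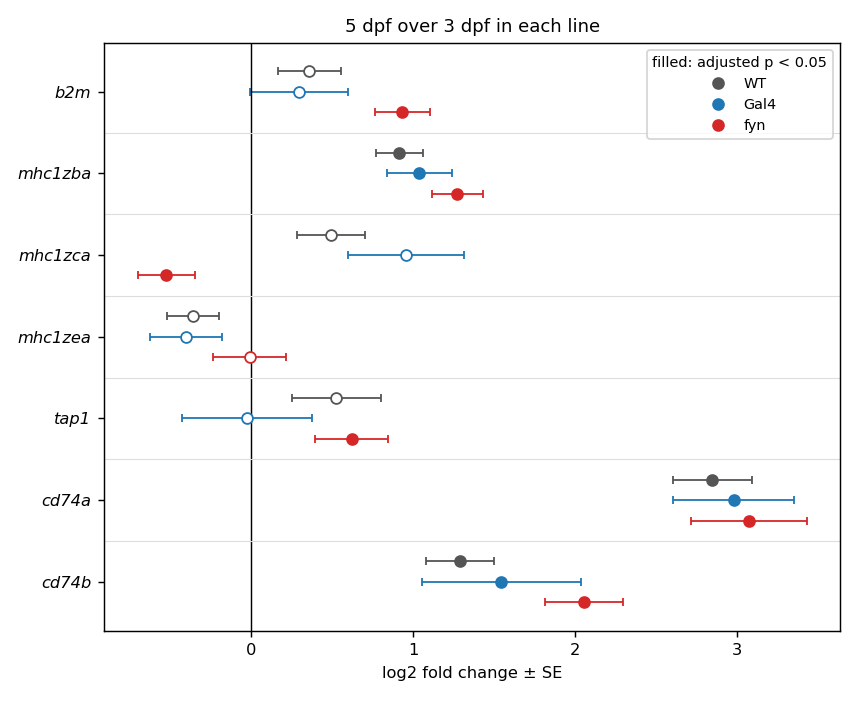
Log2 fold changes from 3 to 5 dpf (horizontal axis) within each line for 7 genes, with bars of 1 standard error and filled points for an edgeR adjusted p under 0.05. *cd74a*, *cd74b* and *mhc1zba* lie to the right of 0 in all 3 lines, and *mhc1zca* lies to the left only in fynY531F larvae.

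Whether the age change differed between lines was tested as an interaction. With fynY531F against WT 1 of 7 genes was called, *mhc1zca*, whose age change was lower by 1.03 ± 0.27 log2 in fynY531F larvae (log2 -1.03, edgeR adjusted p of 0.0207), and 11.7% of all genes were called, 5.47% as lower. In the fit over all 6 groups its edgeR adjusted p was 0.149. With fynY531F against *elavl3:Gal4* edgeR called none of 7, against 4.15% of all genes, while 1 had an unadjusted p under 0.05 and DESeq2 called 1, *mhc1zca*. Its interaction was -1.48 ± 0.41 with an edgeR adjusted p of 0.0532, and it was called without the first *elavl3:Gal4* library at 5 dpf (-1.68, edgeR adjusted p of 0.0227) and without the third (-1.13, edgeR adjusted p of 0.018). Without the third library 3 of 7 genes were called, against 15.9% of all genes, 9.4% as higher and 6.48% as lower, and the others were *b2m* at 0.93 with an edgeR adjusted p of 0.022 and *cd74b* at 1.26 with an edgeR adjusted p of 0.00747. Against WT the *b2m* interaction was 0.56 with an edgeR adjusted p of 0.176. That of *cd74b* was 0.75 with an edgeR adjusted p of 0.157, and it was called without the fourth WT library at 3 dpf (0.95, edgeR adjusted p of 0.0497).

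Across the 24 libraries the invariant chain genes varied together, with a Pearson r of 0.870 between *cd74a* and *cd74b* on log2 levels. *mhc1zba* followed *cd74a* with an r of 0.868 and *cd74b* with 0.719, and *b2m* followed *mhc1zba* with 0.643. *b2m* and *mhc1zea* had an r of -0.0014. These values describe libraries that share their age and line. Among 20932 genes compared with each of the 7 better-counted members, the genes most like *b2m* were *cxcl8b.1*, which encodes a neutrophil-attracting chemokine, with an r of 0.906, *si:dkey-54n8.2* with 0.895 and *si:dkey-222h21.6* with 0.883. For *mhc1zba* they were *pabpc1b*, which encodes a poly(A)-binding protein, with an r of 0.946, *soul2* with 0.938 and *si:ch73-106l15.4* with 0.933. For the invariant chains the nearest were *anxa5a* with an r of 0.981 to *cd74a* and *zgc:64106* with 0.946 to *cd74b*. The nearest to *mhc1zca* was *tnfaip2a* with 0.828, to *tap1* *rgs12b* with 0.861 and to *mhc1zea* *tmem209* with 0.758. When the third *elavl3:Gal4* library at 5 dpf was left out, between 0 and 2 of the nearest 3 genes were still among the nearest 3 for each member.

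The genes around these members in the pathway were taken from lists of other MHC genes, of class I loading and peptide supply, of the class II route and of transcriptional control. Of 11 other MHC genes, none of 4 tested was called by edgeR or DESeq2, or had an unadjusted p under 0.05, between fynY531F and *elavl3:Gal4* larvae at 3 dpf, and 2 of 7 were higher at 5 dpf, where 4.6% of all genes were called, *mhc1zja* and *mhc1zaa*, further Z-lineage heavy chains. *mhc1zja* had 0.137, 0.387, 0.717 and 0.156 CPM in *elavl3:Gal4*, 0.394, 0.408, 0.891 and 0.598 CPM in WT and 2.45, 1.37, 1.59 and 2.16 CPM in fynY531F larvae at 5 dpf. The fynY531F libraries lay above all others, by 2.50 ± 0.47 log2 from *elavl3:Gal4* with an edgeR adjusted p of 0.0215 and by 1.70 ± 0.33 from WT with an edgeR adjusted p of 0.00352. The first of these calls was lost when any 1 of the other 7 libraries was left out, with edgeR adjusted p of 0.0508 to 0.0819. It held without the third *elavl3:Gal4* library, at 2.87 ± 0.43 with an edgeR adjusted p of 0.00168. By the off and on rule *mhc1zja* was on in fynY531F larvae at 5 dpf and mixed in the other lines. In *elavl3:Gal4* it was mixed only through the third library, at 0.717 CPM. Of 45 pathway list genes 0 were all-or-none at 5 dpf, against 0.223% of all genes. With CPM by library totals alone 1 was, against 0.227%. At 3 dpf *mhc1zja* overlapped between the lines. It had 0.93 to 1.20 CPM in WT, 0.839 to 1.93 CPM in *elavl3:Gal4* and 0.869 to 1.41 CPM in fynY531F larvae. With single libraries left out, its log2 change with age ran from -1.20 to -0.76 in WT and from -2.29 to -1.67 in *elavl3:Gal4*. *mhc1zaa* had 0.41, 0.387, 0.12 and 0.312 CPM in *elavl3:Gal4*, 1.27, 1.71, 0.967 and 1.39 CPM in fynY531F and 1.26, 0.758, 1.44 and 1.42 CPM in WT larvae at 5 dpf. At this age it was thus low in *elavl3:Gal4* and level between the other lines. The log2 difference between fynY531F and *elavl3:Gal4* was 2.01 with an edgeR adjusted p of 0.0181. That call was lost without replicate 2 or 4 of either line, with edgeR adjusted p of 0.059 to 0.0665. At 3 dpf *mhc1zaa* had 0.358 to 0.501 CPM in WT, 0.42 to 0.659 CPM in *elavl3:Gal4* and 0.452 to 1.33 CPM in fynY531F larvae. It was thus not low in *elavl3:Gal4* against WT at that age. *mhc2dbb*, a class II beta chain, was higher in fynY531F than in WT larvae at 5 dpf by 0.96 with an edgeR adjusted p of 0.0121, and 0.0968 in the fit over all 6 groups. *mhc1zja*, *mhc1zaa* and *mhc2dbb* were singled out after their values were seen.

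In the list for class I loading and peptide supply 18 of 22 names were matched and 14 genes tested. Between fynY531F and *elavl3:Gal4* larvae edgeR called none at either age. At 3 dpf 5 had an unadjusted p under 0.05 and DESeq2 called none, and at 5 dpf 2 had one and DESeq2 called 2. Against WT 2 were higher and 1 lower at 3 dpf and 4 higher and 1 lower at 5 dpf, against 27.5% and 28.8% of all genes called. The lower gene was *tapbpl*, a relative of tapasin that edits class I peptides in mammals, with 18.7 to 21.0 CPM in WT and 11.4 to 16.4 CPM in fynY531F larvae at 3 dpf and 22.5 to 27.6 against 15.9 to 18.3 CPM at 5 dpf. Its log2 differences were -0.57 and -0.53 with edgeR adjusted p of 0.00215 and 0.00141, and the libraries did not overlap. Its level in *elavl3:Gal4* larvae at 3 dpf, 11.8 to 18.6 CPM, overlapped with the fynY531F range. The immunoproteasome genes were near the floor. *psmb8a*, whose product replaces a catalytic subunit of the proteasome, was singled out after its values were seen. It had 8, 11, 10 and 5 counts in fynY531F larvae at 5 dpf against 0 to 5 in every other library.

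In the class II route 5 of 6 names were matched. In fynY531F larvae 3 of 5 genes were higher and none lower against *elavl3:Gal4* at 3 dpf (8.88% of all genes were higher). The same counts held against WT at 3 dpf (12.7%) and at 5 dpf (14.5%). The 3 genes were *ctss2.2*, *lgmn* and *ctsba* at 3 dpf, but *ctss2.1*, *ctss2.2* and *ctsba* at 5 dpf. At 3 dpf the log2 differences from *elavl3:Gal4* and WT were 0.23 and 0.19 for *lgmn* and 0.27 and 0.27 for *ctsba*. At 5 dpf *lgmn* differed by -0.48 and -0.12, not called. In the fit over all 6 groups the 3 dpf calls were lost, with edgeR adjusted p of 0.372, 0.536 and 0.452 against *elavl3:Gal4* and 0.0839, 0.51 and 0.311 against WT for *ctss2.2*, *lgmn* and *ctsba*. The *ctss2.2* call against *elavl3:Gal4* was also lost without *elavl3:Gal4* replicate 1 or 4 or fynY531F replicate 1 or 2 (edgeR adjusted p of 0.0517 to 0.0743), and the *lgmn* call against WT without WT replicate 2 (edgeR adjusted p of 0.0531). At 5 dpf edgeR called none against *elavl3:Gal4*, none had an unadjusted p under 0.05 and DESeq2 called none, whereas without the third *elavl3:Gal4* library 3 were higher. *ctss2.2*, a cathepsin S gene of the family that trims the invariant chain, had 8.05, 9.33, 6.51 and 7.54 CPM in WT, 11.3, 11.8, 36.2 and 11.9 CPM in *elavl3:Gal4* and 29.3, 38.4, 26.6 and 27.8 CPM in fynY531F larvae at 5 dpf. Apart from the third *elavl3:Gal4* library the fynY531F libraries lay well above the rest. The log2 difference from WT was 1.96 ± 0.14 with an edgeR adjusted p of 1.03e-05, and that from *elavl3:Gal4* was 0.80 ± 0.39 with an edgeR adjusted p of 0.294, or 1.39 ± 0.14 with an edgeR adjusted p of 0.000201 without the third library. So at 3 dpf *ctss2.2* was higher from WT by 0.84 while *cd74b* was lower by 1.18 (log2 -1.18). Cathepsin S is made by macrophages and microglia. The sum of their 7 markers was higher in fynY531F than in WT libraries at both ages. Against *elavl3:Gal4* at 5 dpf it overlapped, at 1416 to 1792 CPM in fynY531F and 822 to 1984 CPM in *elavl3:Gal4* larvae. The sum need not follow the number of these cells, and their part was not tested.

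The list for transcriptional control held 10 names and 11 gene entries, of which 10 were tested. In fynY531F larvae 4 were higher than in *elavl3:Gal4* at 3 dpf and 2 at 5 dpf, 4 were higher than in WT at 3 dpf and 5 at 5 dpf, and none was lower. Of all genes 18.6% and 4.6% were called in either direction against *elavl3:Gal4* at 3 and 5 dpf, and 27.5% and 28.8% against WT. *irf1b*, an interferon regulatory factor, has 2 entries in the tables. The entry ENSDARG00000043249 had 2.43, 1.90, 2.29 and 2.34 CPM in WT, 1.81, 1.91, 1.85 and 1.14 CPM in *elavl3:Gal4* and 9.11, 8.28, 6.80 and 7.26 CPM in fynY531F larvae at 3 dpf, and at 5 dpf 13.7, 15.1, 14.2 and 14.0 CPM in fynY531F larvae against 2.96 to 4.90 CPM in *elavl3:Gal4* and 2.88 to 10.1 CPM in WT. All fynY531F libraries lay above the others of their age. The log2 differences from *elavl3:Gal4* were 2.23 and 1.86 with edgeR adjusted p of 6.6e-06 and 0.00342, and from WT 1.80 and 1.09 with edgeR adjusted p of 6.89e-06 and 0.0313. The last was lost without WT replicate 1 or 3 or fynY531F replicate 2, 3 or 4, with edgeR adjusted p of 0.0534 to 0.0723. The more abundant entry ENSDARG00000110357 overlapped between the lines at both ages. At 3 dpf it had 27.6 to 30.0 CPM in WT, 24.7 to 30.1 in *elavl3:Gal4* and 29.7 to 33.1 in fynY531F larvae. At 5 dpf the ranges were 34.4 to 38.5, 29.7 to 128 and 33.3 to 37.2 CPM, with 128 CPM in the third *elavl3:Gal4* library. The *irf1b* differences given above are thus those of the less abundant entry. *nlrc5*, named after the class I transactivator of mammals and singled out after its values were seen, had 1.58, 1.48, 1.48 and 3.29 CPM in fynY531F larvae at 3 dpf against 0.429 to 1.1 CPM in WT and 0.534 to 1.00 CPM in *elavl3:Gal4*, with log2 differences of 1.5 and 1.39 and edgeR adjusted p of 0.0103 and 0.0138. At 5 dpf its fynY531F libraries had 0.513 to 1.31 CPM and overlapped with those of both other lines. *irf8*, a factor needed for macrophages and microglia, was higher than in *elavl3:Gal4* by 0.81 at 3 dpf with an edgeR adjusted p of 0.00502 and higher than in WT by 1.03 at 5 dpf with an edgeR adjusted p of 0.00481.

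**Figure D4:**
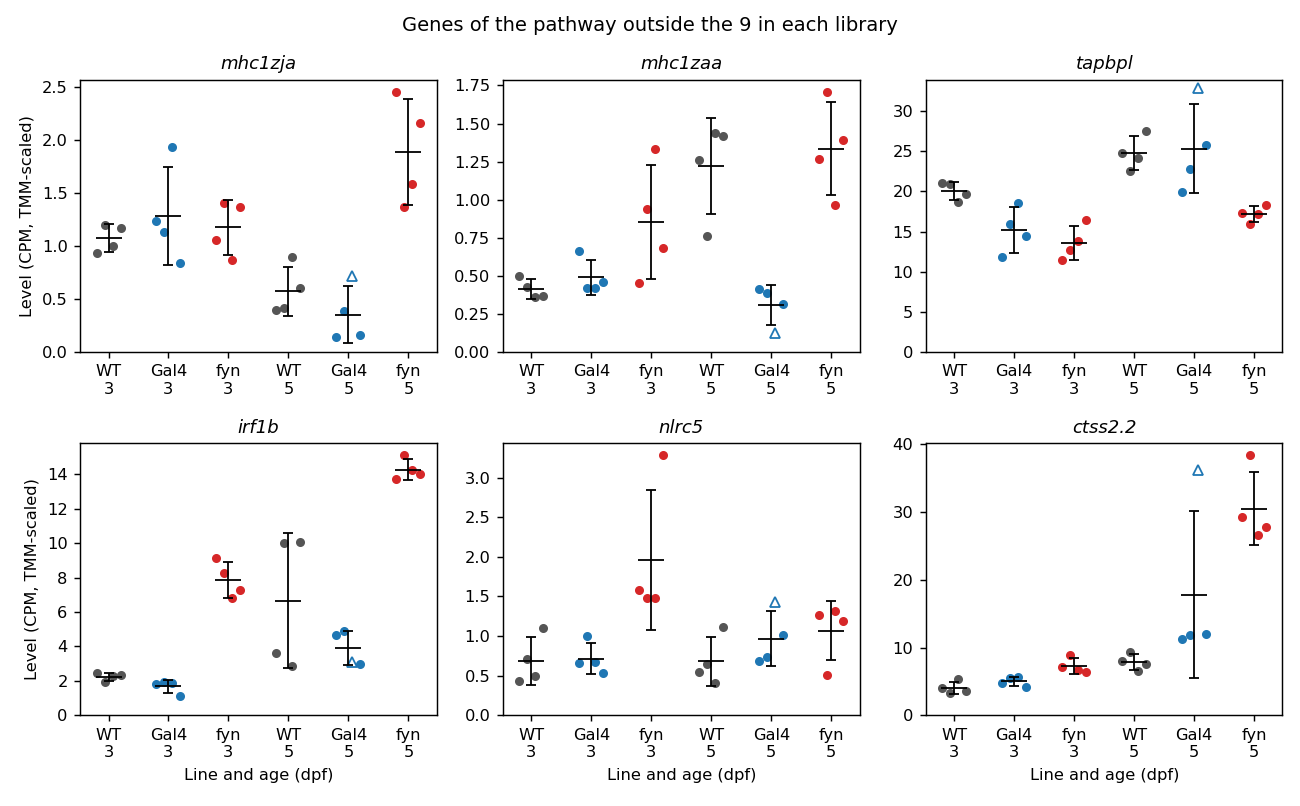
Levels in CPM (vertical axes, each from 0) of *mhc1zja*, *mhc1zaa*, *tapbpl*, *irf1b* (the entry ENSDARG00000043249), *nlrc5* and *ctss2.2* in the 6 groups, with points for libraries, dashes and bars for mean ± SD and an open triangle for the *elavl3:Gal4* library that stands apart. *irf1b* is higher in fynY531F larvae at both ages, *nlrc5* at 3 dpf and *mhc1zja* at 5 dpf.

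With age the pathway genes moved in both directions. *lgmn*, which encodes the endosomal protease legumain, rose by 1.93 log2 in WT, 2.31 in *elavl3:Gal4* and 1.62 in fynY531F larvae, and *erap1b*, a peptide-trimming enzyme of the endoplasmic reticulum, rose by 1.19, 1.43 and 1.41. *calr3b*, a calreticulin gene, fell by 1.43 log2 in WT, 1.45 in *elavl3:Gal4* and 0.89 in fynY531F larvae. All 9 of these changes were called, with edgeR adjusted p between 5.99e-10 and 0.00352. The fall of *calr3b* was smaller in fynY531F than in WT larvae, with an interaction of 0.53 ± 0.13 and an edgeR adjusted p of 0.0105. For *ctss2.2* the rise was larger by 1.11 ± 0.24 in fynY531F than in WT larvae, with an edgeR adjusted p of 0.00531. In the fit over all 6 groups these interactions had edgeR adjusted p of 0.246 and 0.144.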

How the data were processed

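The labels and the study's methods give pooled whole larvae, poly(A) libraries and paired-end sequencing. Per the submitters' processing notes, the authors used HISAT2 2.0.5, StringTie 1.3.3b and featureCounts 1.5.0-p3 with GRCz11. The sources used here do not give the strand and multi-mapping settings of the counting. The deposited count columns hold whole-number read counts per gene, not normalized. They were read from 9 comparison tables, joined by gene, and the 1205864 repeated entries were identical. 27 further tables of subsets, 144 columns of normalized values per sample, and the authors' fold changes and p-values were not used. No 2 libraries were identical.

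Each pair of groups was fitted alone with edgeR 4.0.16 (R 4.3.3) on the counts: filterByExpr, TMM scaling, quasi-likelihood test, and Benjamini-Hochberg adjustment over all genes tested, at 0.05. Age-by-line interactions were fitted over the 4 groups concerned. The members and lists were chosen with earlier results of these data known. Members are all named. From the pathway lists, up to 3 called genes per direction and comparison were named, those averaging 1 or more in log2 CPM, with libraries that do not overlap and the largest changes, and 1 gene that this names is not reported here. Likeness is Pearson's r of log2(CPM + 0.5) over the libraries, among genes with 10 counts in at least 4 libraries. Alternatives were DESeq2 1.42.0 size factors, library totals alone, DESeq2, no filter, all 6 groups in one fit, a replicate block, other off and on thresholds, and leaving out each library. In simulated counts with 200 genes changed by 1.5 on the log2 scale, 98.0% were recovered for fynY531F against *elavl3:Gal4* at 3 dpf and 34.5% at 5 dpf. That change is larger than the line differences of the tested members in the main fits, so smaller changes may be missed more often. The share of false calls ran from 2.82% for fynY531F against *elavl3:Gal4* at 5 dpf to 11.3% for *elavl3:Gal4* against WT at 3 dpf. It was 6.93% for fynY531F against WT at 3 dpf.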

Additional observations from a re-analysis of the deposited data

Results flagged for a closer look

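A library's gap to its nearest neighbor, set against the range of its group of 4, passed Dixon's critical value of 0.829 in 10 of 120 gene and group combinations, where chance gives about 1 in 20. Of the 10, 5 came from the third *elavl3:Gal4* library at 5 dpf. It had 16.6 CPM of *cd74b* against 4.09 to 4.45 CPM in the other 3, 36.2 CPM of *ctss2.2* against 11.3 to 11.9 CPM, and 11.7 CPM of *ctss2.1* against 2.96 to 4.30 CPM. It also had 167 CPM of *calr* against 108 to 115 CPM and 327 CPM of *calr3a* against 133 to 162 CPM. The 120 combinations did not cover every gene of the pathway lists. Outside them the same library had 128 CPM of the *irf1b* entry ENSDARG00000110357 against 29.7 to 39.2 CPM in the rest of its group. It had 6.81 CPM of *rfxank* against 1.23 to 1.72 CPM. The first *elavl3:Gal4* library at 5 dpf had 0.137 CPM of *tap2a* (2 counts) where the others had 0, which is within the limit that a count of 0 allows. The fourth WT library at 5 dpf had 0.523 CPM of *mhc2dab* against 0.206 to 0.237 CPM. The fourth WT library at 3 dpf had 1.46 CPM of *cd74b* against 2.79 to 2.89 CPM. Among the *elavl3:Gal4* libraries at 3 dpf the fourth had 1.14 CPM of *irf1b* against 1.81 to 1.91 CPM, and the second had 2.2 CPM of *erap1b* against 3.05 to 3.13 CPM.

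The age change differed between fynY531F and the other lines for some genes by the interaction test in edgeR. For *mhc1zca* it was -1.03 ± 0.27 log2 against WT with an edgeR adjusted p of 0.0207. For *mhc1zja* it was 2.62 ± 0.56 against *elavl3:Gal4* and 1.58 ± 0.41 against WT, with edgeR adjusted p of 0.0165 and 0.0187. Against WT it was also 1.11 ± 0.24 for *ctss2.2* (edgeR adjusted p of 0.00531), 0.53 ± 0.13 for *calr3b* (edgeR adjusted p of 0.0105), 0.29 ± 0.09 for *calr3a* (edgeR adjusted p of 0.0387) and 1.35 ± 0.42 for *irf1a* (edgeR adjusted p of 0.0467). The last calls were lost without any of several single libraries, at edgeR adjusted p of up to 0.0786 for *calr3a* and 0.109 for *irf1a*.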

How the results depend on the processing

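Of 74 tests of the members, 21 were called, and no called change turned its direction under any alternative run. Over 1148 combinations of test and alternative, 1040 kept direction and call, 38 lost a call, 25 gained one and 45 turned a change that was not called. The setting with the most effect was 1 fit over all 6 groups, whose shared estimate of the spread includes the *elavl3:Gal4* library that stands apart, and the cause of its effect was not tested. With it the number of members called went from 3 to 0 for fynY531F against *elavl3:Gal4* at 3 dpf and from 0 to 1 at 5 dpf, from 3 to 1 and from 2 to 1 against WT, from 0 to 1 for the interaction against *elavl3:Gal4* and from 1 to 0 for that against WT. Library totals alone gave 2 called members for fynY531F against *elavl3:Gal4* at 5 dpf and 1 for the interaction, and DESeq2 gave 1 and 1. With single libraries left out the counts ran from 2 to 3 and 0 to 2 against *elavl3:Gal4* at 3 and 5 dpf, 2 to 3 and 1 to 3 against WT, 0 to 0 for *elavl3:Gal4* against WT at either age, 3 to 5, 2 to 4 and 4 to 6 for age in WT, *elavl3:Gal4* and fynY531F, and 0 to 3 and 1 to 2 for the interactions against *elavl3:Gal4* and WT. Members on in every line at 3 dpf went from 5 to 3 with thresholds of 0.2 and 2 CPM.

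Over all genes, that fit gave 1317, 5025, 1897 and 3449 calls for fynY531F against *elavl3:Gal4* at 3 and 5 dpf and against WT at 3 and 5 dpf, where the pairwise fits gave 3572, 909, 5325 and 5700. It gave 0 and 92 for *elavl3:Gal4* against WT (923 and 10), 7560 and 9429 for age in WT and *elavl3:Gal4* (11352 and 5029), and 1826 and 874 for the interactions against *elavl3:Gal4* and WT (844 and 2380). DESeq2 gave 2456 for fynY531F against *elavl3:Gal4* at 5 dpf, 1465 and 134 for *elavl3:Gal4* against WT and 1758 for the interaction against *elavl3:Gal4*. Library totals alone gave 0 for *elavl3:Gal4* against WT at 5 dpf. With single libraries left out the ranges were 55 to 1521 and 0 to 389 for *elavl3:Gal4* against WT, 3335 to 11617 for age in *elavl3:Gal4*, 341 to 4562 for fynY531F against *elavl3:Gal4* at 5 dpf and 445 to 3262 for the interaction with it.

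For *elavl3:Gal4* against WT at 5 dpf, library totals alone turned *b2m* to -0.093, *mhc1zba* to -0.10 and *cd74b* to -0.10. Leaving out single libraries turned uncalled changes of fynY531F from *elavl3:Gal4* (*mhc1zea* -0.14 to 0.088 and *tap1* -0.063 to 0.16 at 3 dpf, *cd74b* -0.86 to 0.13 at 5 dpf), of fynY531F from WT (*tap1* -0.059 to 0.31 at 3 dpf) and of *elavl3:Gal4* from WT (*mhc1zba* -0.13 to 0.12, *tap1* -0.093 to 0.27 and *cd74b* -0.24 to 0.019 at 3 dpf, and *b2m* -0.20 to 0.23, *mhc1zba* -0.13 to 0.19, *mhc1zca* -0.044 to 0.49, *cd74a* -0.28 to 0.11 and *cd74b* -0.55 to 0.41 at 5 dpf). It also turned those with age (*tap1* -0.27 to 0.25 in *elavl3:Gal4*, *mhc1zea* -0.12 to 0.17 in fynY531F) and the interactions of *cd74a* (-0.13 to 0.39 and -0.045 to 0.47) and *tap1* (-0.10 to 0.26 against WT).

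Replicate numbers are shared between groups in the labels, but no comparison met the rule for paired libraries, with the lowest correlation of same-numbered libraries between -0.196 and 0.00103. A fit with the replicate number as a block moved the calls over all genes to 178 for fynY531F against *elavl3:Gal4* at 5 dpf and to 393 and 0 for *elavl3:Gal4* against WT, and turned *cd74b* to -0.065 for the last. With the block, *b2m* between fynY531F and *elavl3:Gal4* at 3 dpf had an edgeR adjusted p of 0.0796.

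Genes under about 3 counts in a library, *tap2a* and *mhc2dab* among the members, are limited by depth.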

Other observations

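Of the B cell markers, *pax5*, which is also active in parts of the brain, averaged 4.68 ± 0.530 CPM in fynY531F and 2.21 ± 0.477 CPM in WT larvae at 5 dpf (SD, n = 4). *cd79a* and *cd79b*, which encode chains of the B cell receptor complex, were too low to test and had their lowest means at that age in fynY531F larvae. *cd79a* averaged 0.0867 CPM there (5 counts in 4 libraries), 0.229 CPM in WT and 0.439 CPM in *elavl3:Gal4* larvae. *cd79b* averaged 0.173 CPM there (11 counts), 0.564 CPM in WT and 0.450 CPM in *elavl3:Gal4* larvae. The neutrophil markers *mpx*, *lyz* and *mmp13a* summed to 37.2 to 55.7 CPM at 3 dpf and 21.6 to 34.3 CPM at 5 dpf, and these sums overlapped between the lines at each age. Single markers moved apart between fynY531F and WT larvae at 3 dpf. *mpx* was called as higher (log2 0.34, edgeR adjusted p of 0.0245). The *mmp13a* entry ENSDARG00000012395 was called as lower (log2 -0.49, edgeR adjusted p of 0.047), and the entry ENSDARG00000114451 was not called (log2 0.025). Libraries of the lines overlapped for each of them. *rag1*, which cuts antigen receptor genes in the thymus, averaged between 1.52 and 2.38 CPM per line at 3 dpf and between 15.8 and 18.7 CPM at 5 dpf.

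Of the 78 other genes within 200 kb of the members, 58 were tested between fynY531F and *elavl3:Gal4* larvae at 3 dpf, and 2 were higher and 6 lower, or 13.8% against 18.6% of all genes. At 5 dpf against WT 6 were higher and 7 lower of 59, or 22.0% against 28.8%.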
